A study of Mus musculus with 12 samples.

Results

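The clustered protocadherins are cadherin-type adhesion proteins encoded by 3 neighbouring gene clusters, alpha, beta and gamma. In neurons, promoter choice within the clusters is largely stochastic and depends on DNA methylation, CTCF and cohesin, so that each cell carries its own combination of isoforms. Matching combinations bind each other between membranes, and this gives neurites a means of self-recognition and self-avoidance. Each alpha and gamma gene joins its own variable exon to constant exons that the whole cluster shares, while the beta genes have no such constant exons. The C-type genes at the ends of the alpha and gamma clusters are less subject to random choice.

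The members were the protein-coding genes whose symbol follows the alpha, alpha C, beta or gamma A, B and C naming of mouse protocadherins. They numbered 57 of the 55901 genes in the table. There were 14 alpha genes (12 variable and 2 C-type), 22 beta genes and 21 gamma genes (12 of type A, 6 of type B and 3 of type C). Pcdhgb8 had the same kind of name but was annotated as a polymorphic pseudogene and was left out. There were 2 rows under the symbol Pcdha11, which are told apart here by their identifiers, ENSMUSG00000007440 and ENSMUSG00000102206. The shared symbol leaves unsettled whether 1 of these rows is another alpha gene. All members lie on chromosome 18 of GRCm38 (mm10): the alpha cluster at 36930184 to 37187661, the beta cluster at 37264938 to 37524479 and the gamma cluster at 37661793 to 37841873.

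The libraries came from cortical neurons of C57BL/6J pups taken within 24 h of birth. All cultures received arabinosylcytosine (5 μmol) for 24 h, an inhibitor of DNA synthesis that limits dividing glia, and were grown for 7 days. The Control group stayed intact, the Trauma group was collected 24 h after a scratch, and the Trauma+TGF-β1 group had 10 ng/mL of TGF-β1 in the medium for the 24 h after its scratch. Each group held 4 libraries, and no source used here states whether they were separate cultures or litters, so that p-values measure the spread between these libraries, which may be technical. The values are FPKM, read fragments per kilobase of exon scaled to the depth of the library, and reads on genes numbered 15052486 to 17381671 per library.

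Neuronal markers were abundant in every group: the summed FPKM of 12 neuron genes was 1437 to 1494 in Control, 1292 to 1375 in Trauma and 1229 to 1272 with TGF-β1. Glial transcripts were also present. The 9 astrocyte genes summed to 211 to 242, 271 to 332 and 285 to 306 FPKM in the same order, and no defining marker on any list was at 0 in a whole group. In bulk RNA, fewer cells of a type and less RNA per cell cannot be told apart. Control replicate 1 stood apart in the sum of the alpha variable genes and in the neighbouring genes Ndufa2 and Rell2. It also stood apart from the other Control libraries in genes outside this locus. Examples are Stag2 (10.7 against 8.33 to 8.64 FPKM) and Smchd1 (3.97 against 3.08 to 3.18 FPKM). The alpha, Ndufa2 and Rell2 results against Control are given with and without this library.

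How reads were assigned sets what a level means in these clusters. Of the genes whose exons all lie inside exons of other genes on either strand, 97.0% had 0 reads in all 12 libraries, so reads on exon bases shared between genes were not counted. The FPKM length did include those bases. A median of 46.4% of the exon length of an alpha gene and 54.8% of that of a gamma gene belonged to no other gene, against 100% for a beta gene. FPKM therefore gives alpha and gamma genes a lower level than beta genes for the same density of reads on unshared exon bases. A second scale was computed as FPKM per unshared exon length for the genes with at least 1000 unshared bases. For a single gene, changes between groups are the same on either scale apart from the pseudocount. Sums and shares over several genes weight the genes differently on each scale, and their changes between groups are given in FPKM.

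**Figure D1:**
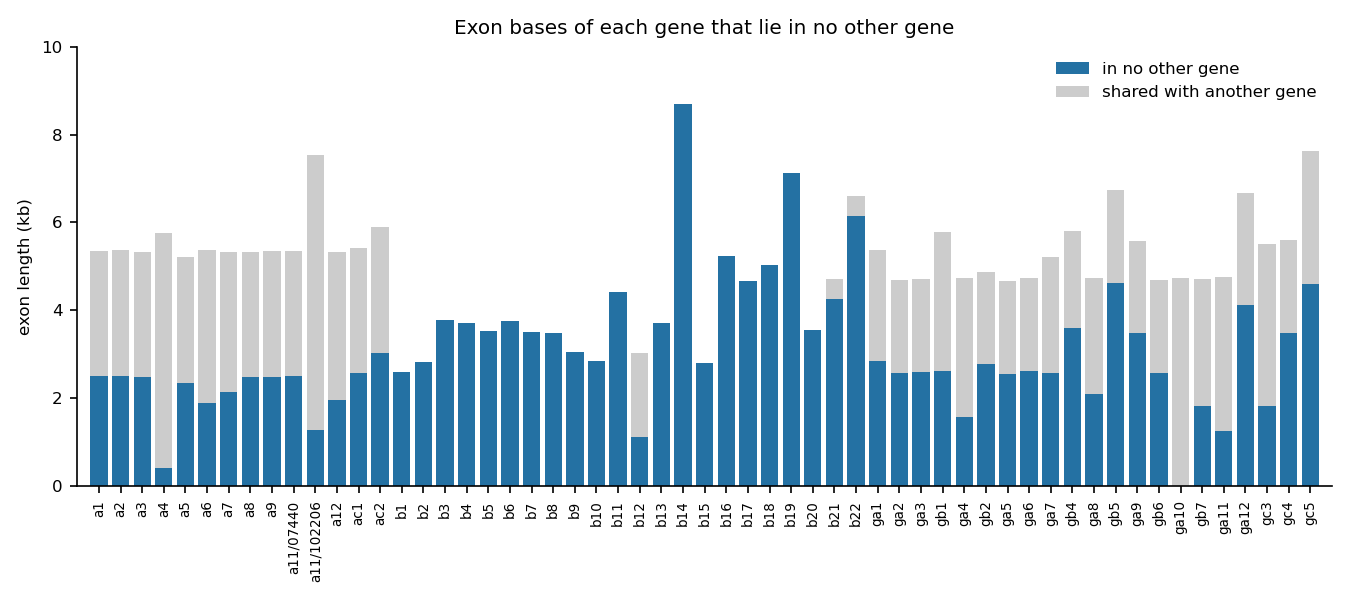
Bars show the exon length of each member in kilobases, in order along the chromosome, split into bases that lie in no other gene (blue) and bases shared with another gene (grey). Each alpha and gamma gene shares part of its exons, 19 of 22 beta genes share none, and Pcdhga10 has no unshared base. The second part of the label a11 is the end of its identifier.

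Most of the repertoire was detected. At least 1 FPKM in all 12 libraries was reached by 48 of 57 members. These were 9 of 14 alpha, 19 of 22 beta and 20 of 21 gamma genes. Pcdha4 and Pcdhga10 had too few unshared exon bases for their levels to be read. The members together took 14097 to 15961 reads per library. Their order by level was much the same in every library: Spearman's rho between 2 libraries was 0.914 to 0.972 over 66 pairs, a description over 57 genes that share a locus, and pairs within a group (0.925 to 0.971) covered nearly the same range as pairs between groups (0.914 to 0.972).

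In FPKM, levels were most uneven in the alpha cluster, which is also the smallest. Its 3 highest genes held 59.0% of the summed FPKM, against 29.6% in the beta and 33.8% in the gamma cluster, and its tested genes spanned 11.5-fold in mean FPKM, against 7.21-fold in each of the others. Pcdhac2, the C-type gene that serotonergic axons need to tile their targets, was the highest of all members at a mean of 15.2 FPKM. Pcdha5 followed at 5.29 FPKM and Pcdha12 at 3.36 FPKM, and the other tested alpha genes had means between 1.32 and 3.23 FPKM.

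The other 4 alpha rows were under the level needed for testing. Pcdha4 (0.0298 FPKM) kept 404 unshared bases of 5768, and Pcdha11 (ENSMUSG00000102206), at 0.0400 FPKM, kept 1268 of 7535. Pcdha8 (0.355 FPKM) and Pcdhac1 (0.326 FPKM, the other alpha C-type gene) were low although close to the usual share of their exons was unshared. In each of Pcdha8 and Pcdhac1 the reads per library were 15 to 44.

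In the beta cluster Pcdhb9 was highest at 8.48 FPKM, before Pcdhb5 at 5.93 FPKM and Pcdhb20 at 5.75 FPKM. Pcdhb1 had 0 to 8 reads per library (0.0610 FPKM) although all its 2588 exon bases were its own.

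In the gamma cluster the C-type genes Pcdhgc3 (11.3 FPKM) and Pcdhgc4 (7.62 FPKM) were highest, before Pcdhga3 at 6.91 FPKM. Pcdhgc3 takes part in dendrite branching through Axin1, and Pcdhgc4 is the gamma isoform that neuron survival depends on. Pcdhgc5, which binds GABA-A receptors and appears late in development, had a mean of 3.29 FPKM. Pcdhga10, with 0 unshared bases, had 0 to 5 reads per library.

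On the scale of unshared exon length the order at the top changed. Pcdhgc3 then led at 34.1, before Pcdhac2 at 29.6, Pcdhga11 at 18.6, Pcdhga3 at 12.5 and Pcdhgc4 at 12.3. The span of the tested genes was then widest in the gamma cluster, at 14.0-fold, against 10.4-fold in the alpha and 6.86-fold in the beta cluster, while the 3 highest genes still held more of the sum in the alpha (58.4%) than in the gamma (39.4%) or beta cluster (28.6%). The cluster medians on this scale were 5.02 for alpha, 2.92 for beta and 5.72 for gamma genes, whereas in plain FPKM they were 1.97, 2.87 and 3.11. The place of a gene along its cluster did not order the levels: Spearman's rho of FPKM with position was 0.08 over 12 alpha variable genes, -0.01 over 22 beta genes and -0.13 over 18 gamma A and B genes, given as descriptions.

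**Figure D2:**
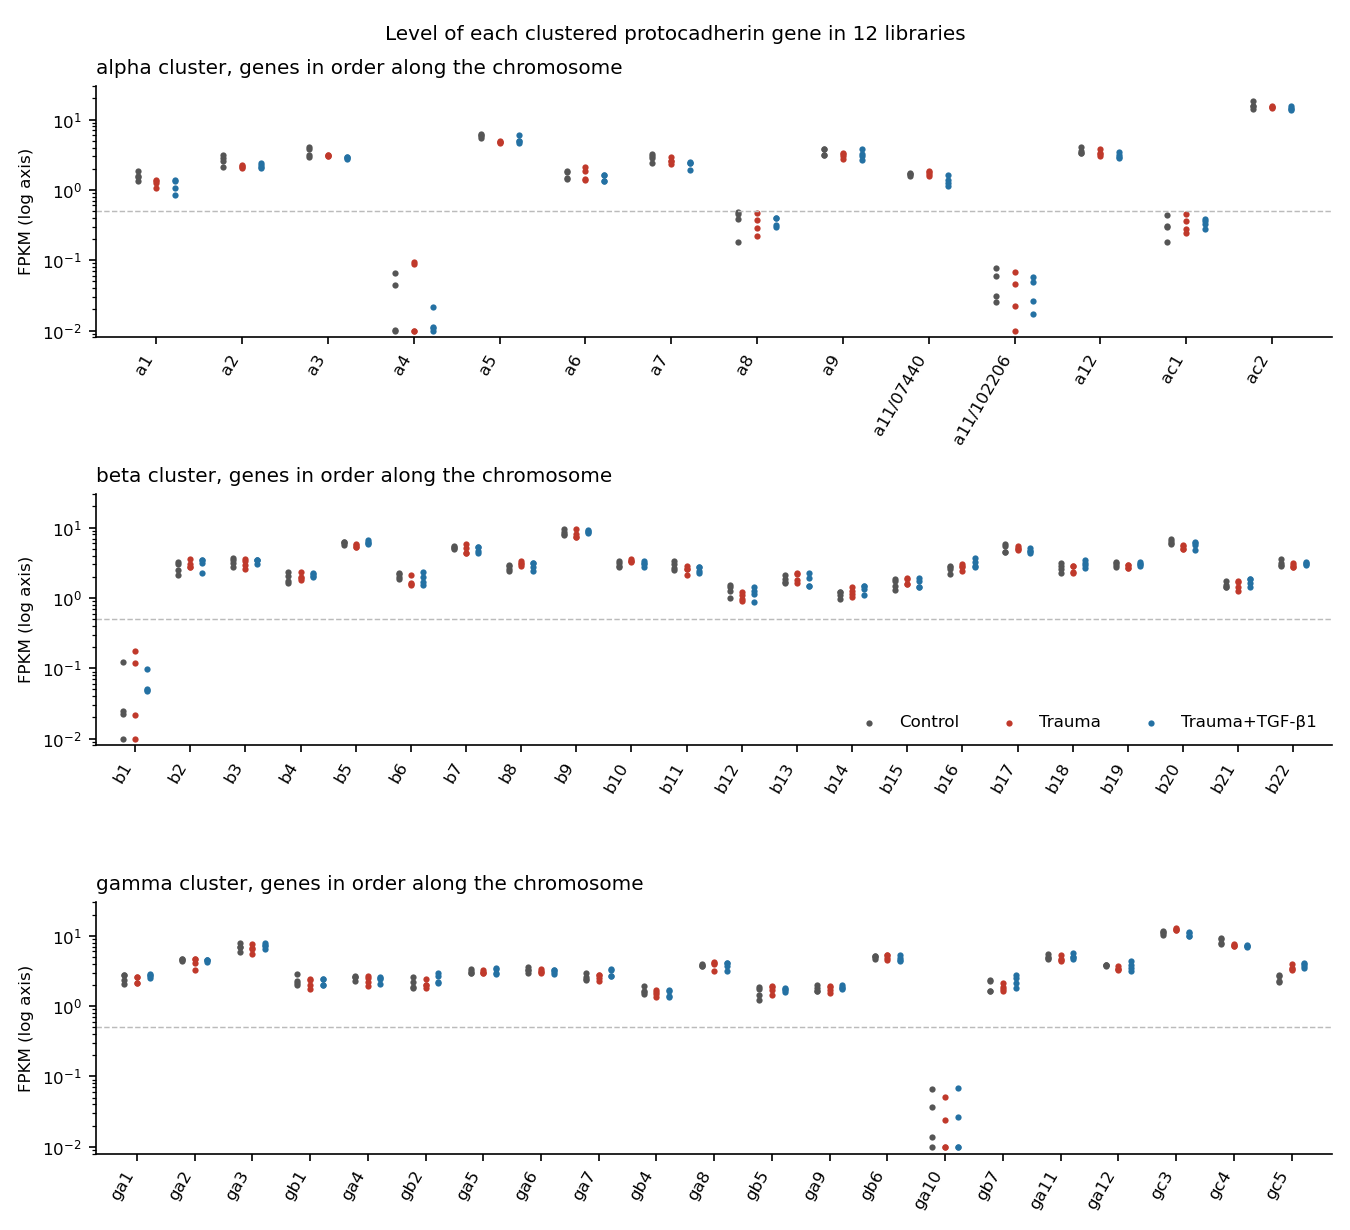
Points are FPKM in each of the 12 libraries on a log axis, for the members of each cluster in order along the chromosome, with Control in grey, Trauma in red and Trauma+TGF-β1 in blue. Values under 0.01 are drawn at 0.01, and the dashed line marks the mean of 0.5 FPKM needed for testing. The groups lie close together for nearly all genes, and Pcdhac2, Pcdhgc3 and Pcdhb9 top their clusters.

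For the comparisons, 51 members had a mean of at least 0.5 FPKM over all libraries and were tested (10 alpha, 21 beta, 20 gamma). The 6 not tested were Pcdha4, Pcdha8, Pcdha11 (ENSMUSG00000102206), Pcdhac1, Pcdhb1 and Pcdhga10. Replicates of the members were about as tight as those of other genes: the median SD within groups was 0.15 on the log2 scale for members and 0.14 for all 15016 genes tested. Fold changes are on the log2(FPKM + 0.1) scale, and adjusted p-values come from limma with Benjamini-Hochberg adjustment over all genes tested.

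The comparison of Trauma with Control asked what the scratch changed. Most of the repertoire did not pass the threshold: 2 of 51 members did, where 6.00% of all genes tested did. Pcdhgc5 was upregulated and Pcdha5 was downregulated.

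Pcdhgc5 (18:37819513-37841873) measured 2.80, 2.71, 2.30 and 2.19 FPKM in the 4 Control libraries. It measured 3.95, 3.41, 3.23 and 3.53 FPKM in Trauma, and 4.17, 3.93, 3.46 and 3.76 FPKM with TGF-β1. Each scratched library was above each Control library, and the scratched groups overlapped. Its level rose 1.40-fold from Control to Trauma (log2 fold change 0.48, SE 0.10, limma adjusted p = 0.0120).

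Pcdha5 (18:36960440-37187657), a variable alpha gene, measured 5.43, 5.93, 6.08 and 6.29 FPKM in Control and 4.85, 4.78, 4.91 and 4.65 FPKM in Trauma. These groups did not overlap. It fell by 0.30 on the log2 scale (SE 0.08, limma adjusted p = 0.0397). With TGF-β1 it measured 4.92, 4.90, 4.68 and 6.01 FPKM, where the last library lay among the Controls. The Pcdha5 call is close to the threshold: under the 28 alternative settings it was lost in 13, among them quantile normalization, no filter on low values, and leaving out Control replicate 2, 3 or 4, any Trauma library, or Trauma+TGF-β1 replicate 1 or 2.

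The other gamma C genes had fold changes of opposite sign and did not pass the threshold. Pcdhgc4 (18:37815079-37841873) measured 8.86, 7.97, 9.21 and 7.67 FPKM in Control and 7.28, 7.09, 7.16 and 7.67 FPKM in Trauma (log2 fold change -0.20, SE 0.06, limma adjusted p = 0.0730). Pcdhgc3 (18:37806364-37841873) measured 11.2, 11.6, 10.4 and 11.0 FPKM in Control and 12.9, 12.1, 12.4 and 12.1 FPKM in Trauma (log2 fold change 0.16, SE 0.05, limma adjusted p = 0.0974). Neither pair of groups overlapped, though for Pcdhgc4 the lowest Control and highest Trauma values were almost equal. Pcdhgc4 did pass after a correction of each library for GC content (-0.25, limma adjusted p = 0.0327) and without Control replicate 4, and Pcdhgc3 passed with scaling by total reads (0.21, limma adjusted p = 0.0346).

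In all, 6 of 51 members had groups that did not overlap, against 12.9% of all genes. Pcdhgc3 and Pcdhgc5 were higher in Trauma, and Pcdha5, Pcdhb20, Pcdhga12 and Pcdhgc4 were lower. Pcdhb20 measured 6.99, 6.00, 5.95 and 6.42 FPKM in Control and 5.64, 5.04, 5.42 and 4.97 FPKM in Trauma (log2 fold change -0.26, limma adjusted p = 0.103), and passed with the GC correction and a replicate block together (limma adjusted p = 0.0386). Pcdhga12 measured 3.71 to 3.85 FPKM in Control and 3.31 to 3.66 FPKM in Trauma, with a log2 fold change of -0.14.

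**Figure D3:**
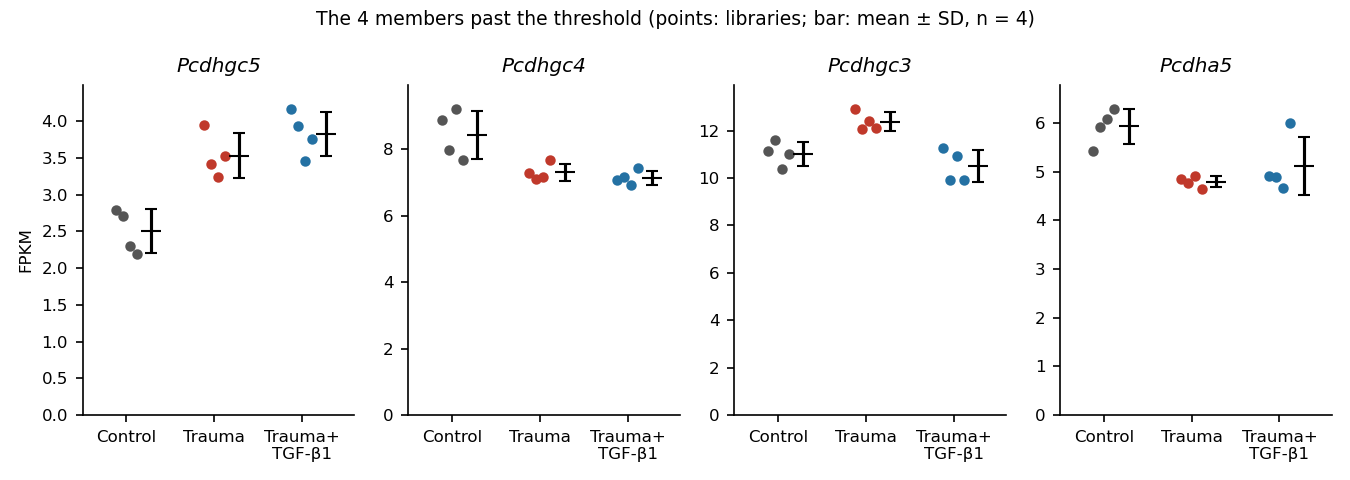
Points are FPKM in each library, with the mean ± SD of 4 libraries beside them, for the 4 members that passed the threshold in at least 1 comparison. Pcdhgc5 is higher in all scratched libraries than in Control, Pcdhgc4 is lower, Pcdhgc3 is highest in Trauma, and Pcdha5 is lower in Trauma.

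The comparison of Trauma+TGF-β1 with Trauma asked what the factor changed in scratched neurons, and it shares the Trauma libraries with the comparison above. Here 1 of 51 members passed the threshold, where 12.1% of all genes did. Pcdhgc3 measured 11.3, 9.93, 10.9 and 9.92 FPKM with TGF-β1, all below the 4 Trauma libraries and around the Control level. Its log2 fold change was -0.24 (SE 0.05, limma adjusted p = 0.0181). It was lost in 5 of the 28 alternatives: both GC corrections, and without Trauma replicate 1, Trauma+TGF-β1 replicate 2 or Trauma+TGF-β1 replicate 4.

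Fold changes in this comparison followed GC content across genes (Spearman's rho -0.48 over 14699 genes, as a description). Pcdhgc3 has the highest GC content of the members, 54.62%. Pcdhgc5 has nearly the same, 54.57%, with a log2 fold change of 0.11, and Pcdhgc4 has 54.08% with -0.03. After a loess correction of each library for GC content the Pcdhgc3 change was -0.14 (limma adjusted p = 0.178), so the call was lost. The cause of the Pcdhgc3 change was not tested.

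Of the other tested C-type genes none passed the threshold. Pcdhgc5 had a log2 fold change of 0.11 (95% interval -0.09 to 0.32), Pcdhgc4 of -0.03 (-0.16 to 0.10) and Pcdhac2 of -0.07 (-0.21 to 0.07). The groups did not overlap for 3 of 51 members, against 22.2% of all genes. Besides Pcdhgc3 these were Pcdha3, with means of 3.08 FPKM in Trauma and 2.88 FPKM with TGF-β1, and Pcdhb5. Pcdhb5 measured 5.31, 5.79, 5.31 and 5.60 FPKM in Trauma and 6.78, 6.24, 5.94 and 6.15 FPKM with TGF-β1 (log2 fold change 0.19, SE 0.06, limma adjusted p = 0.0545).

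Setting Trauma+TGF-β1 against Control joined both treatments and uses the same libraries again. It gave 2 of 51 members past the threshold, where 16.6% of all genes passed. Pcdhgc5 rose 1.51-fold (log2 fold change 0.60, SE 0.10, limma adjusted p = 0.00209). Pcdhgc4 measured 7.07, 7.15, 6.92 and 7.42 FPKM with TGF-β1, below each Control library, and fell by 0.23 on the log2 scale (SE 0.06, limma adjusted p = 0.0218). The Pcdhgc4 call was lost in 6 of the 28 alternatives, the fit of the 2 groups alone, scaling by total reads, both GC corrections, and without Control replicate 3 or Trauma+TGF-β1 replicate 2. With the GC correction 3 members passed, which were Pcdhgc5, Pcdha5 (-0.28, limma adjusted p = 0.0311) and Pcdhb20 (-0.26, limma adjusted p = 0.0497). Without this correction Pcdhgc5 and Pcdhgc4 were also the 2 members whose groups did not overlap, against 18.5% of all genes. Pcdhgc3, at -0.07 (95% interval -0.19 to 0.04), did not pass.

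Within the gamma C genes the composition differed between groups. Pcdhgc5 made up 11.4% ± 0.98 (SD, n = 4) of their summed FPKM in Control, 15.2% ± 0.89 in Trauma and 17.8% ± 1.12 with TGF-β1. The ratio of Pcdhgc5 to Pcdhgc4 in FPKM was 0.298 ± 0.039 in Control, 0.484 ± 0.041 in Trauma and 0.536 ± 0.042 with TGF-β1 (SD, n = 4). A ratio within a library does not depend on how libraries are scaled, and each Control library lay below each scratched library. The summed FPKM of the 3 genes moved less: 22.0 ± 0.82, 23.2 ± 0.69 and 21.5 ± 0.69 FPKM. Unshared bases made up 33.1% of the exon length of Pcdhgc3, 62.1% of Pcdhgc4 and 60.4% of Pcdhgc5. The shares would therefore differ on the scale of unshared exon length. The ratio was chosen after the values of both genes were seen, so it is a description without a test.

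Pcdhac2, the highest member, measured 14.3, 18.1, 15.8 and 15.7 FPKM in Control, 15.2, 15.8, 14.8 and 15.1 FPKM in Trauma, and 15.5, 14.6, 13.9 and 14.2 FPKM with TGF-β1. The groups overlapped. Against Control, its log2 fold change was -0.06 (95% interval -0.20 to 0.08) after the scratch alone and -0.13 (-0.27 to 0.01) with TGF-β1.

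**Figure D4:**
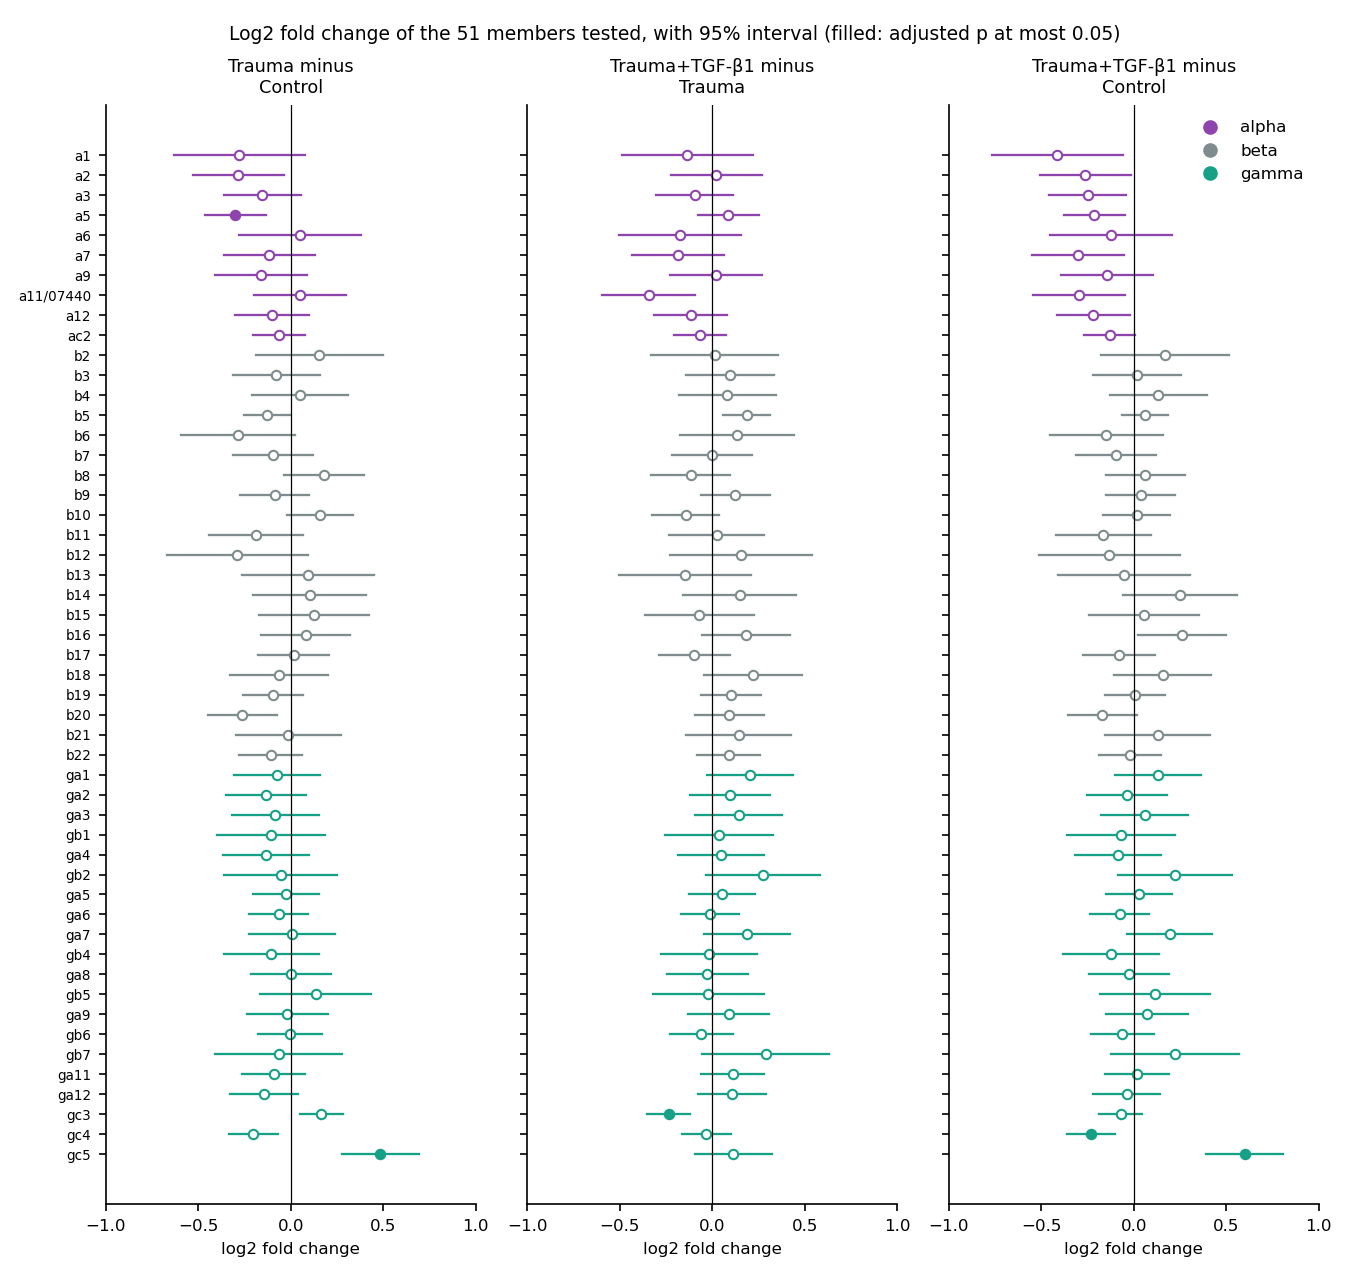
Points are log2 fold changes of the 51 members tested in the 3 comparisons and lines are 95% intervals; filled points have a limma adjusted p of at most 0.05. Intervals of nearly all members include 0 or lie near it, all 10 alpha genes lie below 0 in Trauma+TGF-β1 against Control, and Pcdhgc5 stands to the right in both comparisons with Control.

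As a cluster, the alpha genes stood lower in the scratched groups. In Trauma 8 of 10 tested alpha genes had a lower mean than in Control (80%, against 53.4% of all genes tested). Their median log2 fold change was -0.13, against -0.01 over all genes tested. Lower means were not particular to alpha there: 15 of 20 gamma genes and 12 of 21 beta genes were lower too, with medians of -0.07 and -0.06. In Trauma+TGF-β1 all 10 alpha genes were lower than in Control, as were 51.5% of all genes, 10 of 20 gamma genes and 8 of 21 beta genes. The alpha median was -0.23, against -0.01 over all genes. Single alpha genes in that comparison ran from -0.41 for Pcdha1 to -0.12 for Pcdha6, and 0 of 10 passed the threshold with limma or with voom on the recovered reads, while 7 had an unadjusted p of at most 0.05. Over all genes tested 16.6% passed and 31.1% had such a p. Pcdha11 (ENSMUSG00000007440) had the largest change of the alpha genes between Trauma+TGF-β1 and Trauma, -0.34 (limma adjusted p = 0.0697).

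The summed FPKM of the 12 alpha variable genes was 24.7, 28.1, 28.5 and 28.1 in Control, 25.2, 24.7, 23.4 and 23.5 in Trauma, and 23.6, 23.8, 22.1 and 23.0 with TGF-β1. Control replicate 1 lay among the Trauma libraries, and each library with TGF-β1 lay below each Control library. The group means of this sum were 88.6% of Control after the scratch alone and 84.6% with TGF-β1.

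The number of single-gene calls depends on Control replicate 1. This library was flagged on the same alpha sum, and leaving out a low Control library widens the gap of the alpha genes to Control. The calls without it are therefore not independent support for a lower alpha level. The alpha median of Trauma+TGF-β1 against Control ran from -0.26 to -0.19 with a library left out. Without Control replicate 1, 7 members instead of 2 passed the threshold between Trauma+TGF-β1 and Control. These were Pcdha2, Pcdha3, Pcdha5, Pcdha7 and Pcdhac2, all lower, with Pcdhgc4 and Pcdhgc5. Calls over all genes in that comparison also rose, from 2487 of 15016 to 3392 of 15020. The median of the alpha genes was then -0.26 in that comparison and -0.20 in Trauma against Control. In the latter 3 members passed (Pcdha2, Pcdha5 and Pcdhgc5), where 865 of 15020 genes did.

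Summed levels of neuron markers were lower than in Control in both scratched groups, while single markers went both ways. The group means of the sum were 91.0% of Control after the scratch alone and 85.4% with TGF-β1. The median log2 fold change of the 12 marker genes was -0.02 and 0.12, so sum and median differ in direction in the latter. After the scratch alone 3 of 12 passed the threshold, 1 higher and 2 lower, where 6.00% of all genes passed. With TGF-β1 against Control 9 passed, 5 higher and 4 lower, where 16.6% of all genes passed. The astrocyte genes were 135% and 127% of Control in sum. Against Control 7 of 9 passed after the scratch alone and 4 of 9 with TGF-β1, all higher, against the same shares of all genes. With TGF-β1 set against Trauma, 1 was higher and 3 were lower, where 12.1% of all genes passed. Microglia genes were 148% and 117%, oligodendrocyte genes 126% and 126%, and vascular genes 129% and 149%. Of these, 5 of 9 microglia, 6 of 9 oligodendrocyte and 2 of 6 vascular genes reached the level needed for testing. After the scratch alone 2 of the 5 microglia and 2 of the 6 oligodendrocyte genes passed, all higher than Control. With TGF-β1 against Control 0 microglia genes passed, and 3 oligodendrocyte genes were higher and 1 lower. With TGF-β1 against Trauma 1 microglia gene was lower and 0 oligodendrocyte genes passed. The vascular sum was low, with a mean of 2.34 FPKM in Control, and 0 vascular genes passed the threshold in each comparison. The part of cell composition in the changes of alpha genes and of Pcdhgc3, Pcdhgc4 and Pcdhgc5 was not tested.

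Summed beta levels overlapped between the groups. They were 68.9 ± 1.91 FPKM in Control, 66.4 ± 1.89 in Trauma and 69.4 ± 1.46 with TGF-β1 (SD, n = 4). The median log2 fold change was -0.06 for Trauma against Control, 0.09 for Trauma+TGF-β1 against Trauma and 0.02 for Trauma+TGF-β1 against Control. In each comparison 0 of 21 beta genes passed the threshold with limma or with voom, and 2, 1 and 1 had an unadjusted p of at most 0.05, where 20.0%, 29.2% and 31.1% of all genes did. With the GC correction Pcdhb20 passed between Trauma+TGF-β1 and Control. Single beta genes ranged from -0.29 (Pcdhb12) to 0.18 (Pcdhb8) in the first of these comparisons.

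The sums of the gamma A and B genes overlapped too, at 54.6 ± 2.77 FPKM in Control, 52.2 ± 1.89 in Trauma and 55.5 ± 1.74 with TGF-β1. In each comparison 0 of 17 passed the threshold with limma or with voom, and 0 had an unadjusted p of at most 0.05, against the same shares of all genes. After the scratch alone, 14 of the 17 were lower than in Control (82.4%, against 53.4% of all genes), with a median log2 fold change of -0.07. With TGF-β1, 12 of the 17 were higher than in Trauma and the median log2 fold change was 0.09. In that comparison 29.4% of the 17 were lower, against 49.5% of all genes. The largest changes in that comparison were 0.29 for Pcdhgb7 and 0.28 for Pcdhgb2, with intervals that include 0.

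**Figure D5:**
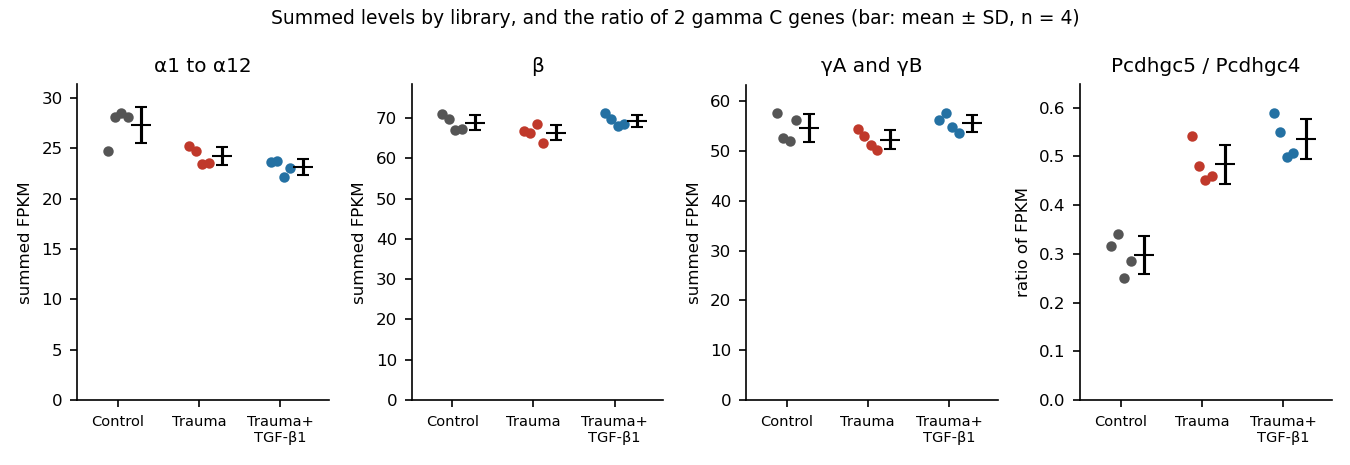
Points are libraries and bars the mean ± SD of 4. The first 3 panels show the summed FPKM of the alpha variable, the beta and the gamma A and B genes, and the last shows Pcdhgc5 divided by Pcdhgc4. The alpha sum is lower in all Trauma+TGF-β1 libraries than in Control, the beta and gamma sums overlap, and the ratio is higher in all scratched libraries.

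Genes that read or shape the clusters were described from lists of regulators, partners, related cadherins and chromosomal neighbours. Their counts of calls are to be read against the 6.00%, 12.1% and 16.6% of all genes that passed after the scratch alone, with TGF-β1 set against Trauma, and with TGF-β1 set against Control. Ctcf, whose protein loops enhancers to protocadherin promoters, had a mean of 16.6 FPKM and log2 fold changes of -0.09 in Trauma against Control, 0.07 in Trauma+TGF-β1 against Trauma and -0.02 in Trauma+TGF-β1 against Control, none past the threshold. Of the 25 regulators tested, 0 passed in Trauma against Control with limma or voom (4 at an unadjusted p of at most 0.05). In Trauma+TGF-β1 against Trauma 4 passed, all higher: the cohesin loader gene Nipbl (0.37), the cohesin gene Smc3 (0.17) and the cohesin regulators Pds5a (0.21) and Pds5b (0.23). Of these, the Nipbl call alone held in all 28 alternatives. With the GC correction Nipbl was at 0.25, while the calls of Smc3 (0.029, limma adjusted p = 0.761), Pds5a (0.067, limma adjusted p = 0.556) and Pds5b (0.081, limma adjusted p = 0.318) were lost. In all, these 3 were lost in 12, 12 and 8 alternatives. Against Control, Nipbl, the cohesin gene Stag2 and the DNA demethylase gene Tet2 were higher with TGF-β1, and the DNA methyltransferase gene Dnmt3a (-0.18) and the zinc finger gene Wiz (-0.19) were lower. The GC correction ended the calls of Stag2, Tet2 and Wiz, which were lost in 15, 13 and 13 of the 28 alternatives, while Nipbl was lost in 0 and Dnmt3a in 1, quantile normalization. The median log2 fold change of the 25 was -0.03, 0.06 and 0.03 in the 3 comparisons in this order, against -0.01, 0.0025 and -0.01 over all genes tested.

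Of 25 signalling and proteolysis partners tested, 1 passed in Trauma against Control, the WAVE complex gene Wasf1 (-0.29). With TGF-β1 5 passed against Trauma: the gamma-secretase gene Ncstn (0.21) was higher, and another gamma-secretase gene, Aph1a (-0.24), the kinase gene Fyn (-0.14), the protein kinase C substrate gene Marcks (-0.20) and the neuroligin gene Nlgn2 (-0.27) were lower. The GC correction ended the calls of Nlgn2 (-0.073, limma adjusted p = 0.349), Aph1a (-0.15, limma adjusted p = 0.107) and Fyn (-0.14, limma adjusted p = 0.0687). Fyn was lost in 15 of the 28 alternatives, Marcks in 7, Aph1a in 6, Nlgn2 in 3 and Ncstn in 1. Against Control 8 passed. Ncstn and Cyfip1 were higher, and the scaffold gene Axin1 (-0.32), Fyn, Marcks, Nlgn2, the receptor gene Ret and Wasf1 were lower. Here the GC correction ended the calls of Nlgn2 (-0.13, limma adjusted p = 0.0613), Cyfip1 and Ret. Ret was lost in 16 of 27 alternatives, Cyfip1 in 10, Marcks in 8, Fyn in 7, Axin1 in 3, Nlgn2 in 2, Wasf1 in 1 and Ncstn in 0. The Wasf1 call in Trauma against Control held in all 28. The medians of the partners were -0.03, 0.09 and 0.02.

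The non-clustered protocadherins, lie outside the 3 clusters. Their means were 40.5 FPKM for Pcdh8, 24.1 for Pcdh1, 15.5 for Pcdh7, 13.0 for Pcdh9, 11.0 for Pcdh19, 10.6 for Pcdh10 and 4.90 for Pcdh17. Pcdh11x, Pcdh20, Pcdh18 and Pcdh15 were between 0.907 and 2.42 FPKM, and Pcdh12 was at 0.00661 FPKM. Of the 11 tested, 1 passed in each comparison (9.09%), and the groups did not overlap for 3 in Trauma against Control, where this held for 12.9% of all genes. Pcdh19 was lower than Control after the scratch alone (-0.28, limma adjusted p = 0.0106) and with TGF-β1 (-0.17, limma adjusted p = 0.0459), and Pcdh7 was higher in Trauma+TGF-β1 than in Trauma (0.24, limma adjusted p = 0.0193). The call of Pcdh19 held in all 28 alternatives after the scratch alone, but was lost in 16 of them with TGF-β1, 10 of these with 1 library left out. The Pcdh7 call was lost in 5, both gene length corrections and without Trauma replicate 2 or Trauma+TGF-β1 replicate 2 or 4. The medians of the 11 were -0.01, 0.09 and 0.0018.

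Among 21 classical cadherin and catenin genes tested, 6 passed in Trauma against Control (28.6%, against 6.00% of all genes). The alpha-catenin gene Ctnna1 was higher (0.54), and Cdh6, Cdh7, Cdh9, Cdh13 and Ctnna2 were lower. Of these, Ctnna1 held in all 28 alternatives, and Cdh7 was lost in 17, with any Control or Trauma library left out among them. Cdh6 and Cdh9 were lost in 8 each, Ctnna2 in 7 and Cdh13 in 3. In Trauma+TGF-β1 against Trauma 3 passed, with Cdh6 (0.23), Cdh10 (0.27) and Cdh11 (0.24) higher. The GC correction ended all 3 calls, at 0.12, 0.11 and 0.17 (limma adjusted p = 0.126, 0.375 and 0.119). Against Control 6 passed, with Ctnna1 (0.60) higher and Cdh7, Cdh9, Cdh13, Ctnna2 and Jup lower. The Jup call (-0.14) was lost in 15 alternatives, voom and the GC correction (-0.044, limma adjusted p = 0.661) among them, Cdh9 in 13, Cdh7 in 8, Cdh13 in 4, Ctnna2 in 1 and Ctnna1 in 0. Their medians were -0.10, 0.04 and -0.02.

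Of the 17 tested genes that flank the clusters or lie between them, 0 passed in Trauma against Control with limma or voom, and 1 had an unadjusted p of at most 0.05. With TGF-β1 the same 3 genes were lower than in Trauma and than in Control: the respiratory complex I gene Ndufa2 (-1.11 and -0.87), Rell2 (-0.51 and -0.47) and Zmat2 (-0.32 and -0.36). Ndufa2 measured 46.4 FPKM in Control replicate 1, where the other Control libraries were at 83.6, 93.0 and 81.8 FPKM and the TGF-β1 libraries at 37.7 to 45.3 FPKM. Rell2 measured 15.5 FPKM in that library, 20.1 to 23.9 FPKM in the other Control libraries and 13.6 to 15.9 FPKM with TGF-β1. Without Control replicate 1 the log2 fold changes against Control were -1.10 for Ndufa2 and -0.60 for Rell2. The Rell2 call against Trauma was lost in 2 alternatives, the GC correction with a replicate block and without Trauma+TGF-β1 replicate 2. The medians of the 17 were -0.01, -0.06 and -0.03. From the start of the alpha to the end of the gamma cluster 29 further rows were annotated, and 3 of them reached a mean of 0.5 FPKM. The highest was Taf7, a general transcription factor gene between the beta and gamma clusters, at 3.98 ± 0.21 FPKM in Control, 3.71 ± 0.13 in Trauma and 3.38 ± 0.32 with TGF-β1.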

How the data were processed

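RNA-seq libraries of mouse cortical neurons were compared in 3 groups of 4. The authors aligned paired-end reads with HISAT2 2.0.5 (mm10 in the submitters' processing notes), counted them with featureCounts and deposited FPKM values and the exon length of each gene (other) for 55901 genes. FPKM times length came out as whole reads for 100% of values (tolerance 0.05). Exon lengths were those of GENCODE mouse release M21 for 57 of 57 members, which was used to count shared exon bases. Deposited FPKM already had equal median-of-ratios factors over 17640 genes, so no rescaling was done.

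Log2(FPKM + 0.1) of the 15016 genes with a mean of at least 0.5 FPKM was fitted with limma 3.58.1 in R 4.3.3 (12 libraries, 3 groups, eBayes with a trend, no block), with Benjamini-Hochberg adjustment over the genes of each comparison and calls at adjusted p-values up to 0.05. The count test was voom on the recovered reads, which called 1128 genes between Trauma and Control, 2557 between Trauma+TGF-β1 and Trauma, and 2896 between Trauma+TGF-β1 and Control. The limma steps were tested on simulated data with changes larger than those of most members. That test therefore does not speak to calls of changes as small as theirs. All members are described by level. Test values are given for members past the threshold, the C-type genes and the 3 highest of each cluster, and other members named were chosen after their values were seen. List genes are named where past the threshold. The members, lists and tests were chosen with earlier results of these data known. No sequences are printed. Tables were made with Python 3.11.15, pandas 2.3.3, numpy 2.4.6 and scipy 1.17.1, and drawn with matplotlib 3.10.9.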

Additional observations from a re-analysis of the deposited data

Results flagged for a closer look

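The summed FPKM of the 12 alpha variable protocadherin genes in Control replicate 1 was 24.7, while the other Control libraries were at 28.1, 28.5 and 28.1. Its gap to the nearest of them, as a share of the group's range, was above Dixon's 95% critical value for 4 samples, a test that flags about 1 in 20 groups by chance. Values without this library are given with the alpha results, and the cause was not tested.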

How the results depend on the processing

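Pcdhgc5 stayed past the threshold against Control, with and without TGF-β1, in all 28 alternatives. The members called in Trauma against Control (2) were 1 with no filter, quantile normalization or the replicate block, 1 to 3 with a library left out, and 3 with the GC correction, where Pcdhgc4 was added, or Pcdhb20 with the block as well. Scaling by total reads gave Pcdhgc3 in place of Pcdha5. In Trauma+TGF-β1 against Trauma (1) they were 2 with a mean of at least 1 FPKM, a gene length correction, eBayes without a trend, protein-coding genes alone or scaling by total reads, where Pcdhb5 or Pcdha11 (ENSMUSG00000007440) was added. They were 0 with the GC correction, alone or with the replicate block, and 0 to 2 with a library left out: 0 without Trauma replicate 1, Trauma+TGF-β1 replicate 2 or replicate 4, and 2 without Control replicate 1, Control replicate 4 or Trauma+TGF-β1 replicate 1. In Trauma+TGF-β1 against Control (2) they were 1 with a fit of the 2 groups or scaling by total reads, 1 to 7 with a library left out, and 3 with the GC correction, alone or with the block, where Pcdha5 and Pcdhb20 were added and Pcdhgc4 was lost. Calls over all genes moved with the settings too. In the 3 comparisons in this order they were 901, 1819 and 2487 in the main fit, and 1273, 747 and 1975 with the GC correction. With a library left out they were 484 to 865, 653 to 2547 and 1466 to 3392.

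Cluster medians moved by less than the replicate spread except these. The beta median was -0.023 in Trauma against Control with scaling by total reads and -0.085 to -0.0077 with a library left out. It was 0.0036 in Trauma+TGF-β1 against Trauma and -0.033 against Control with the GC correction, alone or with the replicate block, and 0.057 against Control with scaling by total reads. With a library left out, the gamma median ran from -0.095 to 0.0020 in Trauma against Control and from -0.025 to 0.056 in Trauma+TGF-β1 against Control. Pcdhb9 in Trauma+TGF-β1 against Control (-0.018) and Pcdhgc4 in Trauma+TGF-β1 against Trauma (0.060) reversed with the GC correction, alone or with the replicate block. Pcdhga3 reversed with a library left out, from -0.15 to 0.0029 in Trauma against Control and from -0.011 to 0.126 in Trauma+TGF-β1 against Control. None of the reversed values was past the threshold, and the causes were not tested. The GC correction and scaling by total reads were added after the values were seen.

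Calls of named list genes were lost in 281 of 1315 refits and none reversed. Deviations from the group means had correlations of -0.0088 to 0.0762 between same-numbered libraries and -0.0911 to 0.0733 between the others. Such small correlations cannot exclude a pairing by number, so fits with a replicate block are given too. Among the members that block by itself changed the call of Pcdha5 alone. Added to the GC correction it lost Pcdhgc4 and gained Pcdhb20 in Trauma against Control, and added to the gene length correction it lost Pcdhb5 in Trauma+TGF-β1 against Trauma. Genes with few reads, such as Pcdhb1, are beyond this depth. Pcdha4 kept 404 unshared bases and Pcdhga10 kept 0. Reads on shared bases were not counted, so their few reads do not give their levels.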
